A study of Tursiops truncatus with 31 samples.

Results

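The December and February collections of 4 bottlenose dolphins (Tursiops truncatus) were compared, animal by animal, to describe how far the blood transcriptome differed between these collections, both of which the study counted as winter. They comprised 8 of the 31 libraries of the series, 4 from December and 4 from February, chosen by the month in the sample titles, and the other 23 libraries came from March to November. Every animal gave 1 library in each of these months. The animals were Hua (male, 5 years), Kai (male, 17 years), Keo (female, 12 years) and Pele (female, 28 years), all healthy, under human care and given no treatment. Blood was drawn from the flukes in the morning after an overnight fast, and globin transcripts (HBA, HBB and HBM) were degraded with RNase H before the libraries were made. Expression was given as FPKM, read fragments per unit of transcript length and of sequencing depth, for 9610 genes of the genome table, 8865 with a symbol and 745 without.

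All 8 collections were made in 2013. The February library was the first and the December library the last of each animal, 299 days apart in Hua and Keo, 300 days in Kai and 304 days in Pele by the dates in the labels. For the February collection of Pele the study gives another day. They were therefore not collected in 1 winter, although they lie only 61 to 66 days apart on the calendar across the new year. Month, place in the year of sampling, the animal's age and the storage time of the tubes cannot be told apart in this comparison.

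Whole blood mixes cells of very different RNA content. Maturing red cells still carry globin and haem synthesis transcripts and, in mammals, lose their ribosomes as they mature, neutrophils carry stable S100 and granule transcripts, and lymphocytes contribute receptor and signalling transcripts. A level in whole blood can differ because a cell type is more or less frequent or because its RNA per cell differs, and these cannot be told apart here. All 4 of the T cell markers (CD2, CD3D, CD3E and CD3G), 4 of 5 neutrophil markers, 3 of 3 monocyte markers and 5 of 6 red cell markers were measured and above 0 in all 8 libraries, while 0 of 6 markers of skin or muscle were in the table.

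The libraries of a month differed widely among themselves. The globin share of the summed FPKM (6 named globins and 2 further genes that are globins by the sequence searches of the study) was 37.6%, 17.3%, 24.9% and 5.68% in the December libraries of Hua, Kai, Keo and Pele, against 21.5%, 23.0%, 6.90% and 20.0% in their February libraries. It was higher in December in 2 animals and lower in the other 2 (difference 3.54 ± 16.0 percentage points, SD, n = 4, exact sign-flip permutation test over animals, two-sided p = 0.75, adjusted p = 0.875 over 5 library measures). The smallest p that this test can give with 4 animals is about 0.13. The February library of Kai stood apart: 17.1% of its genes were listed at 0, its median was 4.81 FPKM and its 100 highest genes held 84.6% of the summed FPKM, the highest, lowest and highest values among all 31 libraries. In the December library of Kai 0.187% of genes were listed at 0 and the median was 10.9 FPKM. Other libraries were at the ends of the 31 as well. The December library of Pele had the highest median (16.1 FPKM) and the lowest globin share. The February library of Keo had the lowest share of the 100 highest genes (59.2%). The counts of calls, the median over all genes, the size of the change and some list medians are given with and without Kai. The values of size and lists without Kai were chosen after seeing the data, and such values are not given without Pele or Keo. The sources used here do not give the depth of each library, so no counting interval could be attached to these values.

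No gene passed the test between December and February. In a limma fit on log2(FPKM + 1) with animals as blocks, 0 of 9610 genes (0.0% higher and 0.0% lower in December) had a Benjamini-Hochberg adjusted p under 0.05, and the smallest adjusted p was 0.631. At an unadjusted p under 0.05 there were 510 genes (5.31%), 475 higher (4.94%) and 35 lower in December (0.364%). Leaving out 1 animal gave 0 calls without Hua, 2 without Kai, 1 without Keo and 8 without Pele. The fit allowed limited precision: the median standard error was 0.55 on the log2 scale and the median half-width of the 95% confidence interval was 1.19. This half-width is for 1 gene before adjustment, and much larger differences also went uncalled, such as 4.95 ± 0.91 in NDUFA1. The absence of calls therefore does not show that differences above 1.19 were absent. The Cufflinks table of the same libraries also gave 0 calls, with 519 of 8030 genes at an unadjusted p under 0.05.

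The number of genes higher in December moved with the level of whole libraries. The median difference over all genes was 0.25 on the deposited values and 0.07 after median-ratio scaling, a shift of all genes that moved the split at an unadjusted p under 0.05 to 415 higher and 205 lower, with 0 calls. Per animal, the median December minus February difference was -0.25 for Hua, 1.03 for Kai, -0.11 for Keo and 0.37 for Pele. Higher in December were 33.5% of genes for Hua, 87.7% for Kai, 43.4% for Keo and 68.6% for Pele. Without Kai the median over all genes was -0.01, with 356 genes higher and 337 lower at an unadjusted p under 0.05. Of the 475 genes higher at that level 39.2% were listed at 0 in the February library of Kai, against 17.1% of all genes.

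**Figure D1:**
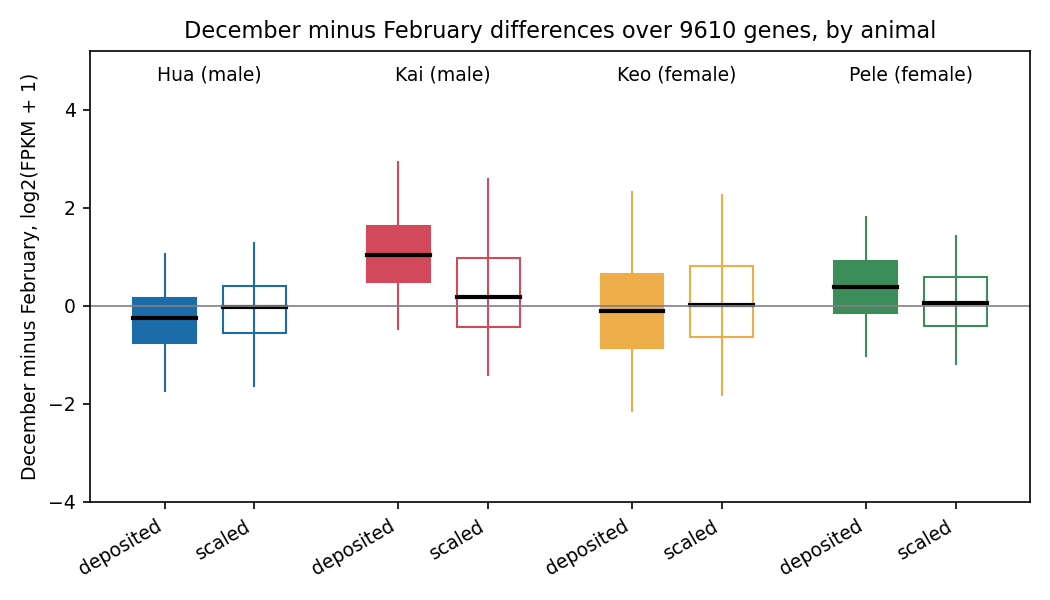
December minus February difference in log2(FPKM + 1) over 9610 genes (vertical axis) in each of the 4 animals, for deposited values (filled) and after median-ratio scaling (open). Boxes span the 25th to 75th percentile, the black line is the median and whiskers reach the 5th and 95th percentile. The deposited medians run from -0.25 in Hua to 1.03 in Kai, and scaling brings them to between -0.02 and 0.17.

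The animals shared little of their change. Over all 9610 genes the December minus February differences of a pair of animals correlated between -0.09 (Hua and Kai) and 0.17 (Keo and Pele, the females), a description over genes, which are not independent replicates and come from the same libraries. Scaling left the range at -0.10 to 0.18. A gene was higher in December in all 4 animals in 1059 cases (11.0%) and lower in all 4 in 154 cases (1.6%). After scaling these counts were 845 (8.79%) and 594 (6.18%).

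On average, the change between December and February was close in size to the changes between other collections of the same animals. In Kai and Keo it was near their upper end. The root mean square difference over all genes on the log2 scale was 0.92 for Hua, 1.51 for Kai, 1.38 for Keo and 0.98 for Pele, on average 1.196 ± 0.293 (SD, n = 4 animals), and 1.09 ± 0.25 without Kai (n = 3). The other 102 pairs of collections within an animal averaged 1.09 ± 0.20, and the 17 of those pairs made within 45 days averaged 1.07 ± 0.21. Pairs within an animal share libraries, so these are descriptions without a test. Among all pairs of its own animal the December and February pair ranked 25th highest of 28 in Hua, 2nd of 21 in Kai, 2nd of 36 in Keo and 15th of 21 in Pele. In Hua and Pele the longest interval of the year thus gave a difference below their median pair (1.14 and 1.12 among the other pairs), while in Kai and Keo it was near the top. After scaling Kai ranked 6th and Keo 3rd. With a filter at a mean of 5 FPKM Kai ranked 1st (1.558, against 1.556 for the highest other pair of Kai) and Keo 2nd. Different animals sampled in the same month were about as far apart, 1.16 ± 0.16 in December and 1.30 ± 0.37 in February (6 pairs each).

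**Figure D2:**
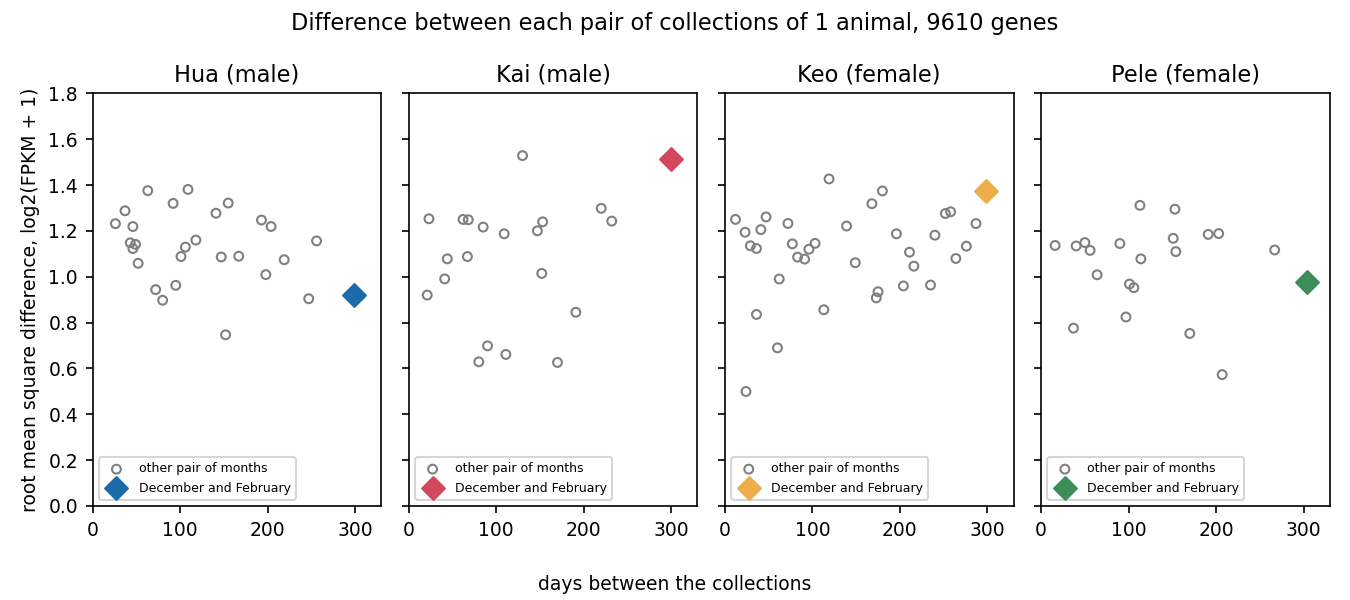
Root mean square difference over 9610 genes in log2(FPKM + 1) (vertical axis) against the days between the collections (horizontal axis), for every pair of libraries of an animal. Diamonds mark the December and February pair, at 0.92 for Hua, 1.51 for Kai, 1.38 for Keo and 0.98 for Pele, and open circles the other pairs.

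The genes with the smallest p were led by NDUFA1, an accessory subunit of respiratory complex I. NDUFA1 had 36.3, 56.9, 275.9 and 61.5 FPKM in the December libraries of Hua, Kai, Keo and Pele, against 0, 39.4, 0 and 0 FPKM in their February libraries. It was higher in December in 4 of 4 animals, but the groups overlapped because of the February library of Kai, and after scaling NDUFA1 was lower in December in Kai (-0.50 on the log2 scale) and higher in 3 of 4 animals. The log2 difference was 4.95 ± 0.91 (SE, limma, adjusted p = 0.631). In the 23 libraries of other months NDUFA1 ranged up to 472.8 FPKM with a median of 98.9, and 3 of them also listed it at 0. The Cufflinks table listed it at 0 in the same 3 February libraries. NDUFA1 passed the test when Kai was left out (adjusted p = 0.0109) and when Pele was left out (1.6e-06), fits with 2 residual degrees of freedom. In the fit without Pele the prior had infinite weight, so that a gene's own spread did not enter its 8 calls.

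The other 9 genes of smallest p that were higher in December were low to moderate in level, and most were listed at 0 in a February library. Named genes were picked by their p or difference in this same comparison, so that a lack of overlap between the months is no further evidence. The share of all genes without overlap was not counted. TMEM123, a membrane protein, had 9.25, 17.8, 18.3 and 15.0 FPKM in December (Hua, Kai, Keo, Pele), against 1.00, 0, 6.42 and 0 FPKM in February, with a log2 difference of 2.99 ± 0.63 (adjusted p = 0.892). HMGN4, a nucleosome-binding protein, had 52.9, 41.2, 46.4 and 65.7 FPKM in December, against 23.9, 7.13, 3.40 and 26.8 FPKM in February, and SEC11C, a catalytic subunit of the signal peptidase, 26.5, 39.0, 21.1 and 55.5 FPKM, against 12.4, 4.86, 3.19 and 14.9 FPKM. Neither was listed at 0 in any of the 31 libraries, and for both every December value was above every February value. Their log2 differences were 2.05 ± 0.49 and 2.01 ± 0.48 (limma, adjusted p = 0.892 for both).

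TMEM167A, a protein of the secretory pathway, had 42.2, 38.1, 65.5 and 33.5 FPKM in December, against 8.77, 0, 0 and 23.0 FPKM in February. In the Cufflinks table, however, it was listed at 0 in the December library of Pele and at 23.3 FPKM in the February library of Pele. COMMD9, of the endosomal recycling machinery, had 13.3, 16.3, 14.0 and 28.7 FPKM in December, against 5.87, 0, 0 and 8.08 FPKM in February. TP53RK, a kinase of the KEOPS complex that modifies tRNA, had 14.5, 14.0, 49.9 and 43.3 FPKM in December, against 8.27, 0, 3.37 and 11.1 FPKM in February. The groups did not overlap for any of these in the RSEM values, which is no further evidence in genes picked by their p. Their log2 differences ran from 2.52 to 3.50. TMEM263 and SMIM19, small membrane proteins, were each listed at 0 in the February libraries of Hua, Kai and Keo, and had 7.00 to 20.1 FPKM and 4.54 to 9.34 FPKM over the 4 December libraries.

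CLEC9A, the lectin receptor by which cross-presenting dendritic cells sense dead cells, had 3.85, 3.17, 9.05 and 8.84 FPKM in December, against 0.62, 0, 0 and 0.90 FPKM in February. December values stood above all February values, and the highest value in the other 23 libraries was 5.92 FPKM, with 11 of them at 0. DESI1, a desumoylating peptidase, PAQR3, a membrane protein of the Golgi, and ENPP5, of the ectonucleotide pyrophosphatase family, were named because the smallest of their 4 differences was among the 5 largest. DESI1 had 4.30 to 16.6 FPKM in December, against 0 to 4.80 FPKM in February, and in the Cufflinks table it was lower in December in Keo and Pele.

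Among genes lower in December, DPM3, which anchors the dolichol-phosphate mannose synthase in the endoplasmic reticulum, had the smallest p. It had 22.6, 49.6, 62.0 and 17.1 FPKM in December (Hua, Kai, Keo, Pele), against 89.7, 83.6, 181.9 and 69.6 FPKM in February. Every December value lay below every February value, which is no further evidence in a gene picked by its p. The log2 difference was -1.55 ± 0.38 (limma, adjusted p = 0.892). The Cufflinks values also did not overlap, with 10.7 to 52.1 FPKM in December and 64.7 to 186.7 FPKM in February. ASMTL had 6.70, 13.1, 6.50 and 7.84 FPKM in December, against 17.2, 14.3, 47.0 and 22.3 FPKM in February, and its February values in 3 animals exceeded the highest of the other 23 libraries, 15.4 FPKM. PEX11A, which promotes peroxisome division, had 0, 2.37, 0 and 0.60 FPKM in December, against 2.40, 13.1, 7.91 and 3.89 FPKM in February. In the Cufflinks table it was listed at 0 in both months in Keo.

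ZC3H12D, a zinc finger protein of the regnase family that degrades inflammatory mRNA, had 1.69, 1.76, 1.17 and 0.85 FPKM in December, against 3.87, 6.36, 4.76 and 3.17 FPKM in February (log2 difference -1.21 ± 0.54, adjusted p = 0.910). PFDN4, a prefoldin subunit, was also lower in all 4 animals, at 0.78 to 8.19 FPKM in December against 2.35 to 15.8 FPKM in February. MYL4, a myosin light chain, had 7.05, 6.61, 0 and 0.32 FPKM in December, against 14.5, 8.04, 9.50 and 8.44 FPKM in February. H2AFJ, a histone H2A variant, and PAQR4 were listed at 0 in 3 December libraries, all but that of Kai. ND6, the complex I subunit encoded on the light strand of mitochondrial DNA, had 0 to 13.7 FPKM in December, against 4.61 to 35.5 FPKM in February. The sources used here do not say whether strand was used in counting, so reads of ND6 and of genes on the other strand may be mixed. URM1, a ubiquitin-like modifier of tRNA, had 3.40 to 20.0 FPKM in December, against 18.8 to 50.4 FPKM in February. In the Cufflinks table, however, URM1 was higher in December in Kai, at 3.06 FPKM against 0. The kinetochore gene SKA2 and the nucleotide hydrolase HINT3 were lower in 3 of 4 animals.

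**Figure D3:**
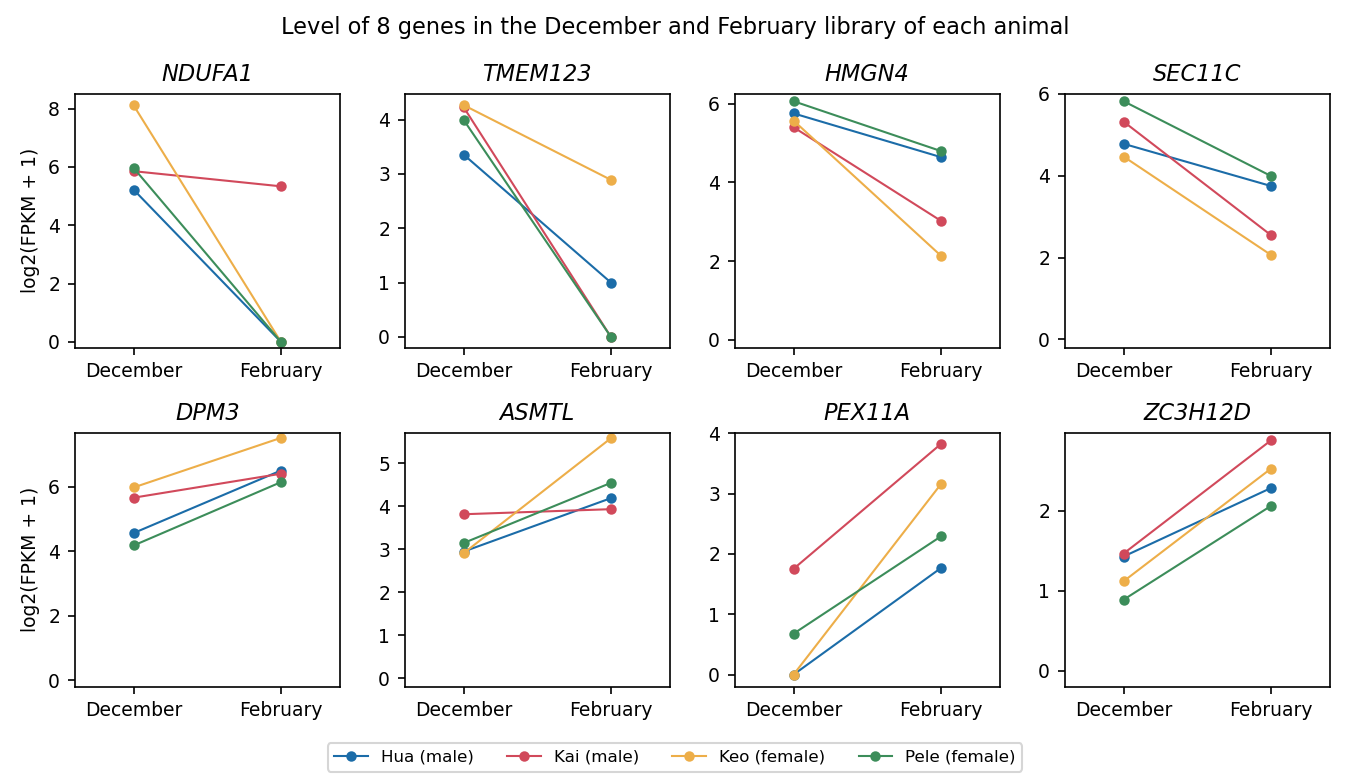
Level in log2(FPKM + 1) (vertical axis) of 8 genes in the December and February library of each animal, joined by animal. NDUFA1, TMEM123, HMGN4 and SEC11C are higher in December in 4 of 4 animals (NDUFA1 in 3 of 4 after scaling), DPM3, ASMTL, PEX11A and ZC3H12D lower in 4 of 4, and none passed the test after adjustment.

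The red cell genes did not differ in 1 direction. The 6 measured globin genes had a median difference of 0.09 (0 of 6 at an unadjusted p under 0.05, median -0.13 after scaling). HBB, the beta globin, had 258229, 102156, 149593 and 25281 FPKM in December (Hua, Kai, Keo, Pele), against 127216, 157890, 31648 and 113584 FPKM in February, higher in Hua and Keo and lower in Kai and Pele. HBA had 11973, 7401, 7059 and 8224 FPKM in December, against 12755, 16732, 9327 and 9022 FPKM in February, lower in 4 of 4 animals with overlapping groups (log2 difference -0.45 ± 0.23, adjusted p = 0.931). HBQ1, the theta globin, was also lower in 4 of 4 animals, at 378.9, 405.7, 179.6 and 363.7 FPKM against 429.7, 577.7, 240.6 and 593.9 FPKM (-0.45 ± 0.28). After scaling both were lower in 3 of 4 animals, and 0 of the 6 globin genes were lower in all 4. HBM (0.28 ± 0.25), HBE1 (0.23 ± 0.29) and HBZ (0.06 ± 0.36) were mixed between animals, and HBB and HBZ turned to -0.10 and -0.16 after scaling. HBA, HBB and HBM were targets of the depletion, and the part of its efficiency in each sample was not tested.

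Of 29 erythroid genes 1 was higher at an unadjusted p under 0.05, against 4.94% of all genes. This was RHAG, the Rh-associated membrane protein, with 0, 1.32, 4.96 and 5.02 FPKM in December, against 0, 0, 0 and 0.72 FPKM in February. GATA1, the erythroid transcription factor, had the lowest difference (-0.53 ± 0.42), with 35.6, 42.0, 29.8 and 27.7 FPKM in December, against 25.9, 58.9, 67.2 and 54.3 FPKM in February. ALAS2, the red cell enzyme that starts haem synthesis, had 37123, 34424, 16448 and 24537 FPKM in December, against 37249, 41312, 19120 and 33357 FPKM in February. It was lower in 4 of 4 animals with a difference of -0.23 ± 0.19, and in 2 of 4 after scaling. The other transcripts that the study followed as controls of the depletion differed by 0.26 ± 0.27 (FKBP8), -0.14 ± 0.22 (RPL13) and 0.04 ± 0.33 (GAPDH), and FT, among the 5 highest named genes, by -0.27 ± 0.20.

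Myeloid genes split between members. S100A12, a calgranulin of neutrophils, had 1821, 2457, 5055 and 2329 FPKM in December (Hua, Kai, Keo, Pele), against 2477, 3047, 8779 and 3871 FPKM in February, lower in 4 of 4 animals (log2 difference -0.57 ± 0.23, adjusted p = 0.892). LCN2, the lipocalin of secondary granules, had 9.64, 14.5, 26.1 and 19.6 FPKM in December, against 3.07, 7.08, 0 and 7.19 FPKM in February (2.11 ± 0.67, adjusted p = 0.892). These did not overlap, but LCN2 was named as the highest of its list. LYZ, the lysozyme of myeloid cells, had 18359, 24102, 37109 and 30478 FPKM in December, against 17779, 13677, 22106 and 21035 FPKM in February, higher in 4 of 4 animals by 0.54 ± 0.20 on the log2 scale (adjusted p = 0.892), and in 3 of 4 after scaling. Over the 17 measured neutrophil genes the median was -0.11 (-0.28 after scaling). At an unadjusted p under 0.05 there were 3 higher and 1 lower, against 4.94% and 0.364% of all genes.

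The summed level of 4 neutrophil markers was 1864 to 6076 FPKM in December, against 2021 to 7275 FPKM in February, higher in 1 of 4 animals. In all animals but Kai neutrophil markers were therefore lower in December while LYZ and LCN2 were higher. For the 15 monocyte genes the median was 0.17 with 0 at an unadjusted p under 0.05, from CD163, the haemoglobin scavenger receptor (-0.28 ± 0.41), to CD86, a costimulatory ligand (0.88 ± 0.78, and 0.20 to 1.97 with 1 animal left out). The 9 eosinophil and basophil genes ran from EMR1 (-0.26 ± 0.43) to MS4A2, the beta chain of the IgE receptor (1.01 ± 0.54). The 11 platelet genes had the lowest list median after scaling (-0.37, and -0.16 on deposited values), between TREML1 of the alpha granule membrane (-0.99 ± 0.58) and RGS18, a regulator of G protein signalling (0.41 ± 0.28).

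The T cell and the cytotoxic and NK cell lists had the highest medians, with most of their difference in Kai and Pele. Over 27 T cell genes the median was 0.55 (0.37 after scaling), against 0.25 over all genes, and without Kai it was 0.36, against -0.01 over all genes. By animal it was -0.60 for Hua, 1.35 for Kai, 0.00 for Keo and 1.41 for Pele, and 26 of 27 genes were higher in December in Kai and in Pele, against 87.7% and 68.6% of all genes. After scaling 19 of 27 were higher in Kai and 23 of 27 in Pele. At an unadjusted p under 0.05 there was 1 T cell gene higher in December, against 4.94% of all genes, and 1 was higher in all 4 animals, against 11.0% of all genes. The sum of CD2, CD3D, CD3E and CD3G was 326.8, 264.6, 484.3 and 642.7 FPKM in December, against 365.4, 103.5, 297.2 and 251.2 FPKM in February, higher in 3 of 4 animals (exact sign-flip permutation test, p = 0.25). CTLA4, an inhibitory receptor, had the highest difference of the list (1.36 ± 0.63) and BCL11B, a T cell transcription factor, the lowest (-0.40 ± 0.58).

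The 16 cytotoxic and NK cell genes had a median of 0.49 (0.29 after scaling, 0.27 without Kai), with 2 higher at an unadjusted p under 0.05, against 4.94% of all genes. GZMA, granzyme A, had 2.04, 14.8, 6.80 and 44.1 FPKM in December, against 1.69, 0, 1.41 and 5.49 FPKM in February, higher in 4 of 4 animals (2.16 ± 0.66, adjusted p = 0.892, and 1.56 to 2.82 with 1 animal left out). PRF1, perforin, which acts with the granzymes, had 11.3, 13.1, 4.52 and 30.7 FPKM in December, against 17.5, 7.26, 13.9 and 23.1 FPKM in February, and so was higher in Kai and Pele only. B cell genes (16 measured) had a median of 0.33, between the receptor TNFRSF13B (-1.17 ± 0.85) and FCRLA (1.02 ± 0.60). HLA-DOB, a modulator of peptide loading, had 37.7, 20.1, 31.3 and 59.1 FPKM in December, against 33.3, 5.36, 4.33 and 25.1 FPKM in February (1.43 ± 0.49), at the top of 12 MHC class II genes (median 0.45) that ended in RFXANK (-0.59 ± 0.53).

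On deposited values ribosomal protein genes stood out in a split between the sexes and in members lower in all 4 animals. After scaling these genes stood out in neither. Their share of the summed FPKM was 26.2%, 30.8%, 27.5% and 32.6% in December (Hua, Kai, Keo, Pele), against 33.9%, 41.9%, 32.1% and 28.4% in February, lower in 3 of 4 animals (difference -4.80 ± 6.55 percentage points, exact sign-flip permutation test, p = 0.25, adjusted p = 0.875). On deposited values 23 of the 66 measured genes (34.8%) were higher in December in both females and lower in both males, against 219 of all 9610 genes (2.28%), and 19 were lower in all 4 animals (28.8%, against 1.6%). After median-ratio scaling these counts were 2 of 66 (3.03%, against 4.89% of all genes) and 3 of 66 (4.55%, against 6.18%). Scaling moves all genes of a library alike, and the scaled list medians ran from -1.49 in Kai to 0.35 in Keo. The members are subunits of the cytosolic ribosome, and such genes are known in mammals for near-identical pseudogenes, between which the counting could split reads.

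The 23 split genes had a median difference of 0.77 in Keo, 0.34 in Pele, -0.18 in Hua and -1.07 in Kai. They held 11.2%, 10.1%, 8.94% and 7.93% of the summed FPKM in the December libraries of Keo, Pele, Hua and Kai, against 7.87%, 6.64%, 11.7% and 15.6% in their February libraries. RPL37 of the large subunit had 24923 and 14113 FPKM in December in Keo and Pele, against 9252 and 5628 FPKM in February, and 18937 and 10043 FPKM in December in Hua and Kai, against 21695 and 48307 FPKM in February. RPS24 of the small subunit had 7884 and 3021 FPKM in December in the females, against 1309 and 807.7 FPKM in February, and 3334 and 1405 FPKM in December in the males, against 3587 and 5484 FPKM in February. For RPL37 and RPS24 the February values of both males thus lay above those of both females, while those of December overlapped. Both genes are among those picked by the split between the sexes, so that this separation is no further evidence. The share of all genes so separated was not counted. The 19 genes lower in all 4 animals were of smaller change, with medians from -0.16 in Hua to -0.33 in Pele.

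RPS26 and RPL5 were the only ribosomal protein genes higher in December in all 4 animals on the deposited values. RPS26 had 574.4, 1372, 1478 and 1448 FPKM in December (Hua, Kai, Keo, Pele), against 534.4, 683.1, 415.9 and 420.7 FPKM in February (1.18 ± 0.32, adjusted p = 0.892), the groups overlapping through Hua. After scaling it was higher in 3 of 4 animals.

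**Figure D4:**
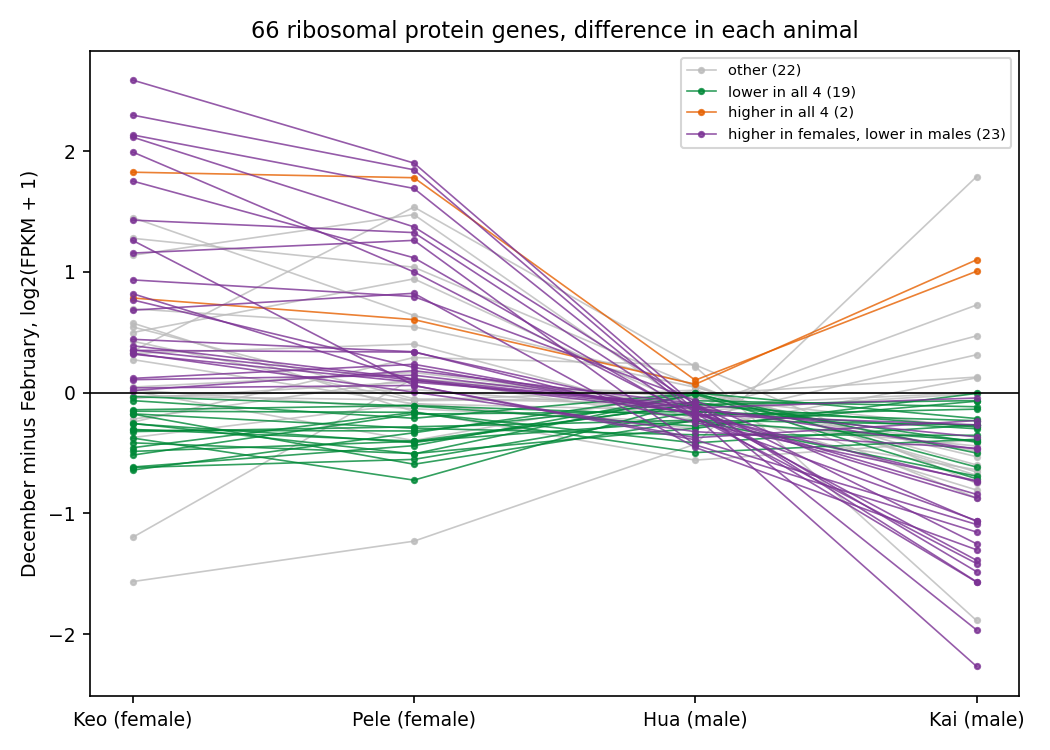
December minus February difference in log2(FPKM + 1) (vertical axis) of 66 ribosomal protein genes in each animal, a line per gene. The 23 genes higher in both females and lower in both males are purple, the 19 lower in all 4 animals green, the 2 higher in all 4 orange and the other 22 grey.

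A formal test of the female minus male difference in change depended on how the spread was estimated. It compared 2 females with 2 males, so that sex cannot be told apart from differences between single animals. With the mean-variance trend 25 of 9610 genes passed an adjusted p under 0.05, 22 with the larger value in females (0.229%) and 3 in males (0.0312%), and 9 of the 25 were ribosomal protein genes, led by RPL37 (2.61 on the log2 scale, adjusted p = 2e-10) and RPS24 (3.28, 8.4e-09). This limma fit had 2 residual degrees of freedom and its prior had infinite weight, so that a gene's own spread did not enter, and in 22 of the 25 the residual SD exceeded the SD that the fit used. Without the trend 0 genes passed (264 at an unadjusted p under 0.05), and after scaling 0 genes passed (443 unadjusted). At an unadjusted p under 0.05 the reported fit had 133 genes with the larger value in females (1.38%) and 216 with the larger value in males (2.25%). UQCRB, a subunit of respiratory complex III, was among the 3 whose own spread was smaller than that used, with 359.9 and 135.9 FPKM in December in Keo and Pele against 52.3 and 22.2 FPKM in February, and 41.0 and 58.9 FPKM in December in Hua and Kai against 113.4 and 378.1 FPKM in February.

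Other gene groups of basic cell function gave 0 calls after adjustment. Of 60 oxidative phosphorylation genes 6 were higher and 0 lower at an unadjusted p under 0.05 (median 0.36, 0.14 after scaling), against 4.94% and 0.364% of all genes and their median of 0.25, from NDUFB7 (-0.62 ± 0.60) to NDUFA1. Of 72 mitochondrial ribosome genes 4 were higher and 0 lower (median 0.39, 0.16 without Kai), and 10 were higher in all 4 animals, against 11.0% of all genes. After scaling 5 were higher and 6 lower in all 4. The extremes were MRPL55, with 78.5, 49.2, 68.1 and 55.8 FPKM in December against 61.6, 18.1, 0.74 and 37.5 FPKM in February (1.90 ± 0.69, and 0.77 to 2.42 with 1 animal left out), and MRPL34 (-0.66 ± 0.44). Of 41 spliceosome genes 5 were higher (median 0.24, against 0.25 over all genes), between the core proteins SNRPF (-0.74 ± 0.64) and SNRPG (2.46 ± 0.99, and 0.78 to 3.58 with 1 animal left out). SNRPG had 181.9 and 279.1 FPKM in December in Keo and Pele, against 0 and 38.0 FPKM in February, and 60.1 and 15.5 FPKM in Hua and Kai, against 45.9 and 29.4 FPKM. Of 37 proteasome genes 1 was higher (median 0.14), with PSMD14 (0.99 ± 0.46) and PSMF1 (-0.25 ± 0.36) at the ends.

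Lists of signalling and stress responses also gave 0 calls after adjustment. DUSP1, a phosphatase induced by glucocorticoids, had 19.4, 166.5, 73.2 and 84.4 FPKM in December (Hua, Kai, Keo, Pele), against 27.4, 26.3, 19.9 and 13.1 FPKM in February, higher in all animals but Hua (1.64 ± 0.52, adjusted p = 0.892). GADD45A, the lowest of the 11 glucocorticoid response genes, was lower in 4 of 4 animals (-0.50 ± 0.32). IL1A, an inflammatory cytokine, had 12.0, 30.2, 30.5 and 54.4 FPKM in December, against 7.42, 19.3, 10.5 and 7.62 FPKM in February (1.34 ± 0.50, higher in 3 of 4 animals after scaling), and its decoy receptor IL1R2 differed by -0.35 ± 0.41. The 27 interferon response genes had a median of 0.35 with 1 higher at an unadjusted p under 0.05, against 4.94% of all genes. They ran from ISG20 (-0.50 ± 0.45) to RSAD2, viperin, with 0, 3.04, 14.5 and 5.23 FPKM in December against 0, 0, 4.17 and 0 FPKM in February (1.56 ± 0.60).

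HSPE1, the mitochondrial co-chaperone, had 59.6, 31.9, 213.0 and 68.7 FPKM in December, against 49.4, 19.8, 43.7 and 21.1 FPKM in February, higher in 4 of 4 animals (1.21 ± 0.43), and in 3 of 4 after scaling, at the top of 18 heat shock and cold response genes that ended in DNAJB4 (-0.67 ± 0.56). Of the 15 circadian clock genes 1 was higher at an unadjusted p under 0.05, against 4.94% of all genes. This was ARNTL2, a partner of CLOCK, with 1.60, 1.09, 3.88 and 6.81 FPKM in December, against 0.07, 0, 0 and 2.70 FPKM in February (1.43 ± 0.55). NR1D1, the repressor REV-ERB alpha, was lowest (-0.96 ± 0.67). All libraries were drawn in the morning. The remaining ends of lists were ZFP36 (1.56 ± 0.76, and 0.88 to 2.69 with 1 animal left out) and JUN (-0.60 ± 0.39) of the immediate early genes, BNIP3 (1.43 ± 0.64) and NDRG1 (-0.40 ± 0.50) of the hypoxia response, and CCNE1 (1.50 ± 0.64) and MCM2 (-0.35 ± 0.61) of the cell cycle.

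The genes that the study named for its seasonal comparison had been picked by it from these same samples, so that their direction is no independent evidence. It named coactosin and a coronin for the males, RPL31 and CD79B for the females and beta-chimaerin for both, in its de novo assembly. It also named an erythroid associated factor (ERAF) for the females, which is not among the 8 genes given here. Its text does not say which coronin, so several coronin genes were taken here, which gave 8 measured genes. None of the 8 was at an unadjusted p under 0.05 between December and February. COTL1, an actin-binding protein, had 672.6, 1314, 912.4 and 953.5 FPKM in December, against 862.3, 657.9, 2343 and 1554 FPKM in February (-0.36 ± 0.34), and the coronins CORO1A, CORO1B, CORO1C and CORO2A differed by -0.24 ± 0.32, 0.70 ± 0.63, 0.31 ± 0.45 and 0.60 ± 0.76. RPL31 differed by -0.29 ± 0.25, the B cell receptor component CD79B by 0.08 ± 0.40 (-0.14 after scaling) and CHN2 by -0.28 ± 0.80, and the 95% interval of all 8 included 0.

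**Figure D5:**
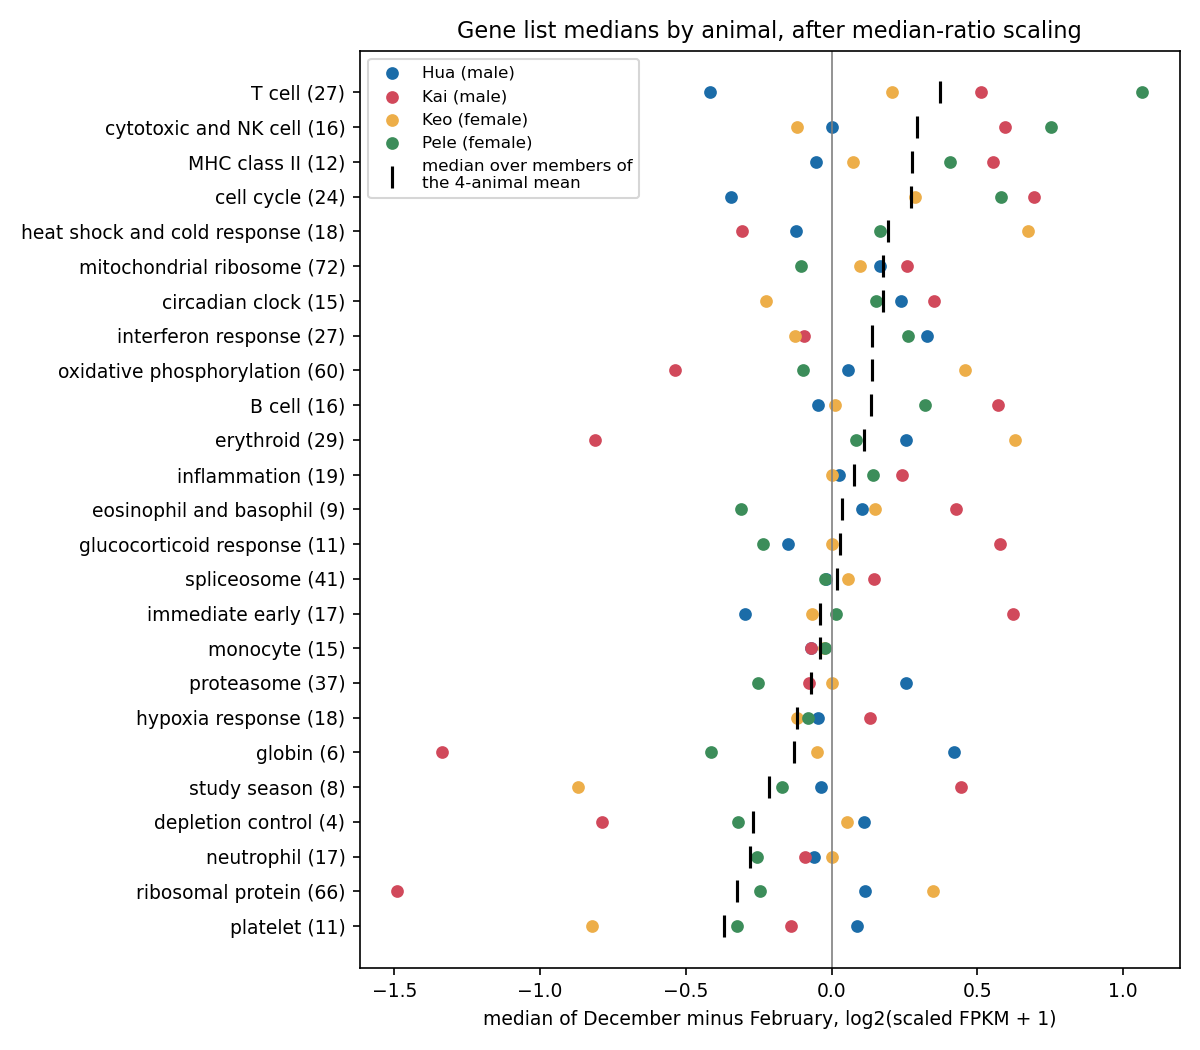
Median December minus February difference of each gene list after median-ratio scaling, in log2(scaled FPKM + 1) (horizontal axis), with the number of measured genes in parentheses. Points are the 4 animals and the black bar is the median over members of the 4-animal mean, which runs from -0.37 (platelet) to 0.37 (T cell). Within the T cell list the animals run from -0.42 (Hua) to 1.07 (Pele).

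The 23 libraries from March to November were not in the December minus February fit and were fitted on their own for the order of sampling. In a limma fit with animals as blocks 0 of 9610 genes had a slope over these months at an adjusted p under 0.05 (smallest 0.237, 1107 at an unadjusted p under 0.05). The median slope was 0.16 per 100 days on deposited values and 0.01 after scaling. After scaling, 63.1% of the 845 genes higher in December in all 4 animals had a positive slope from March to November, against 51.8% of all genes, and 34.2% of the 594 genes lower in all 4 did. Across genes the deposited December minus February difference and the slope correlated at 0.18 (Pearson, 9610 genes, which are not independent). Of the leading genes, TMEM167A had a slope of 1.45 per 100 days and NDUFA1 one of 0.51, whereas TMEM263 (-0.41) and SMIM19 (-0.49), higher in December, had negative slopes and DPM3, lower in December, a slope of 0.50.

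The de novo table, with 29702 assembled genes, likewise gave 0 calls (0.0% in each direction, smallest adjusted p 0.582), with 2022 higher (6.81%) and 439 lower (1.48%) at an unadjusted p under 0.05. After scaling 875 were higher and 1157 lower. The smallest p belonged to comp19169_c0, with 8.72, 3.99, 6.28 and 12.8 FPKM in December (Hua, Kai, Keo, Pele), against 2.56, 0, 0 and 2.71 FPKM in February. Lowest in p among genes lower in December was comp12610_c0, with 0, 2.19, 0.43 and 0 FPKM, against 3.64, 4.05, 19.8 and 5.63 FPKM. This assembly was built from 8 libraries that included all 4 February libraries and no December library.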

How the data were processed

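RNA-seq of globin-depleted dolphin blood was taken from tables the authors deposited as FPKM. Per the labels and the study's methods, the authors trimmed reads (Trimmomatic). For Cufflinks 2.2.0, reads were aligned to Ensembl turTru1 with TopHat2 2.3.13 and Bowtie2 2.2.4. RSEM 1.2.18 with Bowtie2 gave the genome table from turTru1 and the de novo table from the Trinity assembly. The study kept genes with a mean of at least 1 FPKM that were above 0 in a set share of its samples. The authors' EBSeq results (fold changes and posterior probabilities) were not used. The study states a targeted depth, and the depth obtained per library is not given in the sources used here.

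The 4 December and 4 February libraries were compared with limma 3.58.1 in R 4.3.3 on log2(FPKM + 1), a scale that understates the change of low genes, with animal blocks, a mean-variance trend (eBayes) and Benjamini-Hochberg adjustment over all genes (call at 0.05), two-sided. The blocks are the animals themselves, and deviations of libraries from their month's mean correlated at 0.06 to 0.12 within animals, more than with any other animal. Single values were tested by exact sign-flip permutation over animals. An FPKM of 0 can be a failed estimate, so genes are described as listed at 0. Median-ratio scaling used genes above 0 in all 31 libraries. The December minus February fit was tested on simulated data.

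The alternatives were scaling, a pseudocount of 0.1, a filter at a mean of 5 FPKM, no block, all 31 libraries in the fit, Cufflinks FPKM, no trend, and leaving out each animal. List medians and the size of the change without Kai were added after seeing the data. Named genes were the 10 smallest p in each direction (none passed), the 5 genes per direction with the largest minimum difference among those alike in all 4 animals, the ends of each list, all globin, depletion control and study season genes, and the 5 highest means. A gene so chosen is not reported here. The members, the 25 gene lists and the tests were chosen with earlier results of these data known.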

Additional observations from a re-analysis of the deposited data

Results flagged for a closer look

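Each group of 4 libraries was searched for a library far from the other 3, whose gap to the nearest took most of the group's range. Named genes were taken on the log2 scale and library measures as they were, over 186 groups in all. For independent values from a normal distribution such a search marks about 1 in 20 groups. The groups here share libraries and most hold genes picked in these same data, so that their number cannot be read against that rate. The search marked 23 groups. In 8 of these the gene was listed at 0 in the other 3 libraries, so that any value above 0 stood apart. These were NDUFA1 in the February library of Kai (39.4 FPKM), TMEM263 (11.5 FPKM), SMIM19 (2.17 FPKM), RHAG (0.72 FPKM) and CTLA4 (1.22 FPKM) in the February library of Pele, RSAD2 in the February library of Keo (4.17 FPKM), and H2AFJ (6.62 FPKM) and PAQR4 (1.66 FPKM) in the December library of Kai.

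Low values in the December library of Hua, below those of the other 3 animals, were DESI1 (4.30 FPKM), CD163 (15.0 FPKM), ZFP36 (1.22 FPKM), NDRG1 (2.15 FPKM) and RPS26 (574.4 FPKM). In the December library of Keo HBQ1 (179.6 FPKM), PSMF1 (64.4 FPKM) and MRPL34 (13.7 FPKM) were low, and IL1R2 (58.6 FPKM) and BNIP3 (7.72 FPKM) were high. In February, ARNTL2 was high in Pele (2.70 FPKM) and HBE1 low in Pele (123.6 FPKM), ND6 was high (35.5 FPKM) and CD79B low (23.1 FPKM) in Kai, and SNRPG was listed at 0 in Keo.

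The December minus February difference differed between the 2 females and the 2 males by the limma test with a mean-variance trend in 25 genes. It did so in 0 genes without the trend or after scaling. SNRPG was among the 25, with a female minus male value of 5.43 (adjusted p = 0.000104), 5.18 on average in females and -0.25 in males. The differences of the 2 females were 7.51 and 2.84, so that they stood further apart than the SD used by the fit (0.72).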

How the results depend on the processing

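The count of 0 genes between December and February held under median-ratio scaling, a pseudocount of 0.1, a filter at a mean of 5 FPKM, Cufflinks FPKM, no mean-variance trend, no animal block and all 31 libraries in the fit, and ran from 0 (without Hua) to 8 (without Pele) when 1 animal was left out, with 2 calls without Kai and 1 without Keo. Those fits had 2 residual degrees of freedom, and the prior of the one without Pele had infinite weight. Genes at an unadjusted p under 0.05 numbered 510 in the reported fit, 798 with all 31 libraries and scaling (chosen after seeing the data), and 348 (without Pele) to 818 (without Hua) with 1 animal left out. In the de novo table, where 0 genes passed under each alternative, they numbered 2461, against 1192 with the filter, 1573 without the animal block and 1403 (without Pele) to 2632 (without Kai) with 1 animal left out. Without the block the genome table had 423, and both tables gave 0 calls after adjustment with and without it. The sex difference, 25 genes as reported, was 0 after scaling and 0 without the trend. It ran from 5 (without Keo) to 269 (without Hua) with 1 animal left out, 45 without Kai and 17 without Pele, and from 76 to 1441 genes at an unadjusted p under 0.05, against 349. The trend and leave-one-out fits of the sex difference were chosen after seeing the data. The March to November slope had 575 genes at an unadjusted p under 0.05 after scaling, against 1107. The size of the December and February change was 1.93 with a pseudocount of 0.1, where the other pairs of an animal averaged 1.77. The cause of these moves was not tested.

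Of 88 named genes 74 kept their direction under every alternative run on them. After scaling, in the fits of 8 and of 31 libraries, 4 had the opposite sign: HBZ (-0.16), HBB (-0.10), GAPDH (-0.18) and CD79B (-0.14). With 1 animal left out 14 took both signs, with ranges as follows: HBZ (-0.33 to 0.35), HBB (-0.59 to 0.88), EMR1 (-0.57 to 0.043), PRF1 (-0.54 to 0.19), MCM2 (-0.67 to 0.24), NDRG1 (-0.60 to 0.057), PSMF1 (-0.40 to 0.059), GAPDH (-0.32 to 0.39), CHN2 (-1.05 to 0.74), CORO1C (-0.039 to 0.55), CORO1A (-0.60 to 0.10), CD79B (-0.42 to 0.42), CORO2A (-0.43 to 1.31) and RPL31 (-0.44 to 0.037). NDUFA1 passed the test without Kai and without Pele, and TMEM167A and TMEM263 without Pele. Cufflinks values existed for 70 of the named genes. Without depth, low genes and genes listed at 0 limit what can be said, and with 4 animals the smallest p of an exact sign-flip test is about 0.13.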

Other observations

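The genes whose change differed by sex in the fit with a mean-variance trend included 16 that were higher in December in both females and lower in both males, 9 of them ribosomal protein genes. Among the others were COX6C, SEC61G and KRBA2, named here after their values were seen. COX6C, a subunit of respiratory complex IV, had 374.1 and 143.2 FPKM in December in Keo and Pele against 22.6 and 29.0 FPKM in February, and 111.6 and 61.5 FPKM in December in Hua and Kai against 127.6 and 83.1 FPKM in February. SEC61G, a subunit of the protein translocon, differed by 2.34 and 1.58 in the females and -1.14 and -1.28 in the males on the log2 scale. KRBA2 differed by 2.34 and 2.01 in the females and -0.23 and -1.86 in the males. SS18L2 went the other way, with 0 and 1.26 FPKM in December in Keo and Pele against 29.4 and 8.04 FPKM in February, and 4.73 and 16.2 FPKM in December in Hua and Kai against 0 FPKM in both February libraries. None of these passed without the trend.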
